A study of Mus musculus with 8 samples.

Results

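The response of mouse epidermis to a topical glucocorticoid was compared between wild-type and REDD1 knockout mice. The comparison took the 4 treated libraries of the 8 in the study. For each gene, the change from the phorbol ester TPA alone to fluocinolone acetonide plus TPA (FA+TPA) in wild type was subtracted from the same change in the knockout. A value above 0 therefore stands for a larger rise, or a smaller fall, without REDD1. The other 4 libraries, from skin given acetone alone, served only to judge the spread.

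REDD1, encoded by Ddit4, restrains the growth-promoting kinase complex mTORC1 and is itself induced by stress and by glucocorticoids. Glucocorticoids bind the glucocorticoid receptor, a transcription factor that raises genes carrying its binding site and restrains inflammatory genes driven by AP-1 and NF-kB. In skin they quiet inflammation, and on long use they thin the epidermis. TPA activates protein kinase C and produces inflammation and a thickened, stressed epidermis.

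All mice were females of 1 F1 background, C57Bl x 129, shaved on the back, and differed in genotype, "Wildtype" or "REDD1 Knockout". Each was painted with acetone (200 ul), with TPA (4 ug in 200 ul), or with FA (2 ug in 200 ul) 1 h ahead of TPA. Epidermis was scraped off 24 h after TPA, and total RNA was sequenced. Each genotype had 2 vehicle libraries, 1 TPA library and 1 FA+TPA library. The labels do not say how many animals went into a library or whether the numbered vehicle libraries came from separate animals, so the p-values cover only how these samples scatter, possibly for technical reasons.

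Library totals ranged from 16874233 to 22560098 counts, and the limit set by 3 counts, which covers counting error alone, came to between 0.134 and 0.191 CPM, read counts scaled to the normalised library total. The summed level of the keratins Krt5, Krt14, Krt1 and Krt10, which define epidermal keratinocytes, was between 15590 and 29470 CPM in every library. One non-coding transcript, Gm26917, took between 8.34% and 24.2% of a library's counts, most in wild-type TPA. Levels below are CPM after TMM normalisation, which rescales libraries so that most genes match.

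Ddit4, at chr10:59949669-59951834 on the minus strand (GRCm38), checked the genotype labels. It stood at 127.9 and 116.8 CPM in the wild-type vehicle libraries and at 18.78 and 18.59 CPM in the knockout vehicle libraries. TPA alone gave 64.15 CPM in wild type and 4.438 CPM in the knockout. FA+TPA gave 90.15 CPM in wild type and 7.237 CPM in the knockout. Every knockout library lay below every wild-type library. The FA effect on Ddit4 was 0.49 ± 0.17 (log2 fold change ± SE) in wild type and 0.70 ± 0.22 on the remaining knockout transcript, and neither passed the test (adjusted p = 0.183 and 0.154, edgeR). Their difference was 0.21 ± 0.28, with a 95% interval from −0.40 to 0.83.

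The glucocorticoid acted in both genotypes. FA changed 596 genes in wild type and 527 in the knockout at an adjusted p under 0.05 in edgeR's quasi-likelihood test, with each treated group a single library assumed to vary like the vehicle pairs. In wild type 314 genes rose (1.63% of the 19251 tested) and 282 fell (1.46%). In the knockout 288 rose (1.5%) and 239 fell (1.24%). Of these, 299 (1.55% of genes tested) were called in both genotypes, each in the same direction in both, which is 50.2% of the wild-type calls and 56.7% of the knockout calls. The FA effects of the 2 genotypes, which share no library, had a Pearson r of 0.745 across the 11997 genes whose mean log2 CPM reached 2. That value is across genes, which are not independent replicates.

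**Figure D1:**
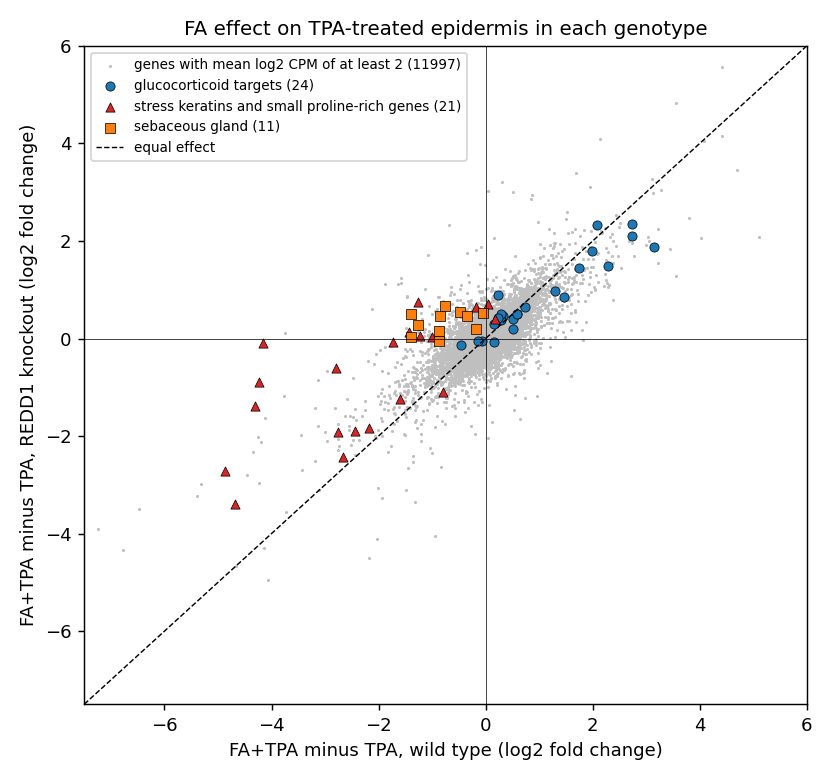
FA effect in wild type (x axis) against FA effect in the knockout (y axis), both as log2 fold changes from TPA to FA+TPA, 1 point per gene. Glucocorticoid targets lie along the line of equal effect, while most stress keratin and small proline-rich genes and all 11 sebaceous gland markers lie above it.

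No gene passed the test of the difference between genotypes. In edgeR, 0 of 19251 genes had an adjusted p under 0.05 (0% higher and 0% lower), and the smallest adjusted p was 0.253. At an unadjusted p under 0.05, 312 genes were higher (1.62%) and 301 lower (1.56%). limma-voom also called 0 genes, and DESeq2 called 7, of which 6 were higher (0.0312%) and 1 lower (0.00519%). Among the same 11997 genes, the difference of differences was past 2-fold in 2.2% of genes. The same arithmetic on the 4 vehicle libraries, where no treatment differs, put 2.83% past 2-fold, and its SD was 0.444 against 0.364 in the treated libraries. Over all tested genes the shares past 2-fold were 9.73% and 9.85%. Past 4-fold, among the 11997, the order turned, with 39 genes (0.325%) in the treated libraries and 22 genes (0.183%) in the vehicle libraries.

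**Figure D2:**
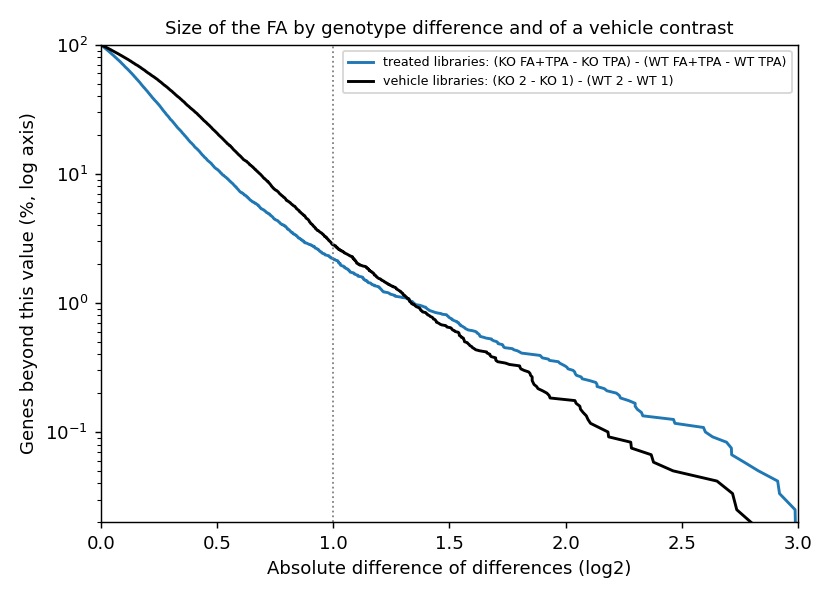
Share of genes (y axis, percent, log axis) whose absolute difference of differences exceeds a given log2 value (x axis), for the treated libraries and for the same arithmetic on the vehicle libraries, over 11997 genes. The treated curve lies below the vehicle curve at 2-fold (dotted line, 2.2% against 2.83%) and above it at 4-fold (0.325% against 0.183%).

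The number of calls changed when a vehicle library was left out. Leaving out 1 vehicle library left 1 residual degree of freedom, against 2 with all libraries. The prior degrees of freedom, the weight given to the spread shared by all genes over each gene's own, went from 8.18 to 102 without wild-type vehicle 1, 31 without wild-type vehicle 2 and no limit without either knockout vehicle library. These fits gave 51 calls without knockout vehicle 1 (0.268% of genes tested), 51 without knockout vehicle 2 (0.267%), 183 without wild-type vehicle 1 (0.951%) and 128 without wild-type vehicle 2 (0.664%). Called in all 4 of these fits were 48 genes, 39 of them higher (0.208% of the 18790 genes tested in all 4) and 9 lower (0.0479%). The wild-type vehicle pair was the more uneven, with a median absolute log2 difference of 0.197 against 0.122 in the knockout pair.

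Genes that FA changed over both genotypes were taken from a fit that adds genotype and treatment. It called 1099 rises (5.71%) and 830 falls (4.31%). All 1929 went the same way in both genotypes, which this fit favours by construction. The rises had a median log2 change of 0.85 in wild type and 0.84 in the knockout, and 53.5% of them were smaller in the knockout. The falls had a median of −1 in wild type and −0.91 in the knockout, and 64.7% of them were smaller in the knockout. That split depended on scaling: with library size alone, which moved the median difference of all genes to −0.20, the knockout had the smaller change in 75.5% of the rises and in 47.7% of the falls. Of the 1929 genes, 117 had an unadjusted p under 0.05 for the difference and 0 passed after adjustment. Over all 19251 genes tested, 1.62% were higher and 1.56% lower at that unadjusted p.

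Glucocorticoid receptor targets responded in both genotypes, and none of the 24 list members passed the test of the difference or reached an unadjusted p of 0.05. FA raised 8 of them in wild type (Fkbp5, Tsc22d3, Zbtb16, Klf9, Pdk4, Angptl4, Hif3a and Il1r2) and 6 in the knockout (the same without Angptl4 and Hif3a). Over all genes tested, it raised 1.63% in wild type and 1.5% in the knockout. The median FA effect was 0.55 in wild type and 0.51 in the knockout, against 0.03 and −0.001 over all genes. The median difference was −0.10, against −0.01 over all genes (−0.30 against −0.20 with library size alone), with 14 members below 0 and 10 above. By size, 17 of the 24 effects were smaller in the knockout. The same arithmetic on the vehicle libraries gave these 24 genes a median of −0.39.

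Fkbp5, a co-chaperone that damps the glucocorticoid receptor, stood at 60.88 CPM in wild-type TPA and 240.8 in wild-type FA+TPA, and at 66.84 and 232.7 CPM in the knockout. Both FA+TPA libraries lay above all 4 vehicle libraries, which ranged from 80.44 to 146.4 CPM. It rose by 1.98 ± 0.29 in wild type (adjusted p = 0.00555, edgeR) and by 1.80 ± 0.29 in the knockout (adjusted p = 0.0102). The difference was −0.18 ± 0.39, with an interval from −1.06 to 0.69.

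Tsc22d3, which encodes the anti-inflammatory mediator GILZ, went from 49.7 to 244 CPM in wild type and from 70.4 to 198 CPM in the knockout. The difference was −0.80 ± 0.44 (interval −1.79 to 0.19). Zbtb16, a zinc-finger transcription factor, went from 25.98 to 173 CPM and from 32.7 to 141 CPM, with a difference of −0.63 ± 0.49. In both genes the knockout started higher under TPA and ended lower under FA+TPA, by amounts that did not pass the test. Klf9, a Krüppel-like repressor, differed by −0.30 ± 0.41, and Il1r2, the decoy receptor for interleukin-1, by −0.31 ± 0.27. Pdk4, which holds back pyruvate oxidation, rose by 2.08 in wild type and 2.32 in the knockout, a difference of 0.24 ± 0.64. Angptl4, an inhibitor of lipoprotein lipase, had a difference of −0.63 ± 0.40, and Hif3a, a regulator of the hypoxia response, one of −1.27 ± 1.03 at levels of at most 2.22 CPM.

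Glul, glutamine synthetase, was the target nearest to the threshold. It read 123 CPM in wild-type TPA, 145 in wild-type FA+TPA, 71.0 in knockout TPA and 132 in knockout FA+TPA. The 2 FA+TPA libraries were close and the 2 TPA libraries were apart. The difference was 0.65 ± 0.29, with an unadjusted p of 0.0501. The remaining targets had smaller differences in size: Per1 0.14, Dusp1 0.15, Sgk1 −0.10, Mt1 −0.31, Mt2 −0.22, Errfi1 −0.11, Cebpd 0.01, Cebpb 0.32, Anxa1 0.11, Zfp36 0.11, Gadd45a −0.10, Rgs2 −0.08, Bcl6 0.21 and Cdkn1a 0.20, on the log2 scale. Cdkn1c was at or below 0.482 CPM in all 4 treated libraries, and its interval ran from −4.06 to 3.29.

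**Figure D3:**
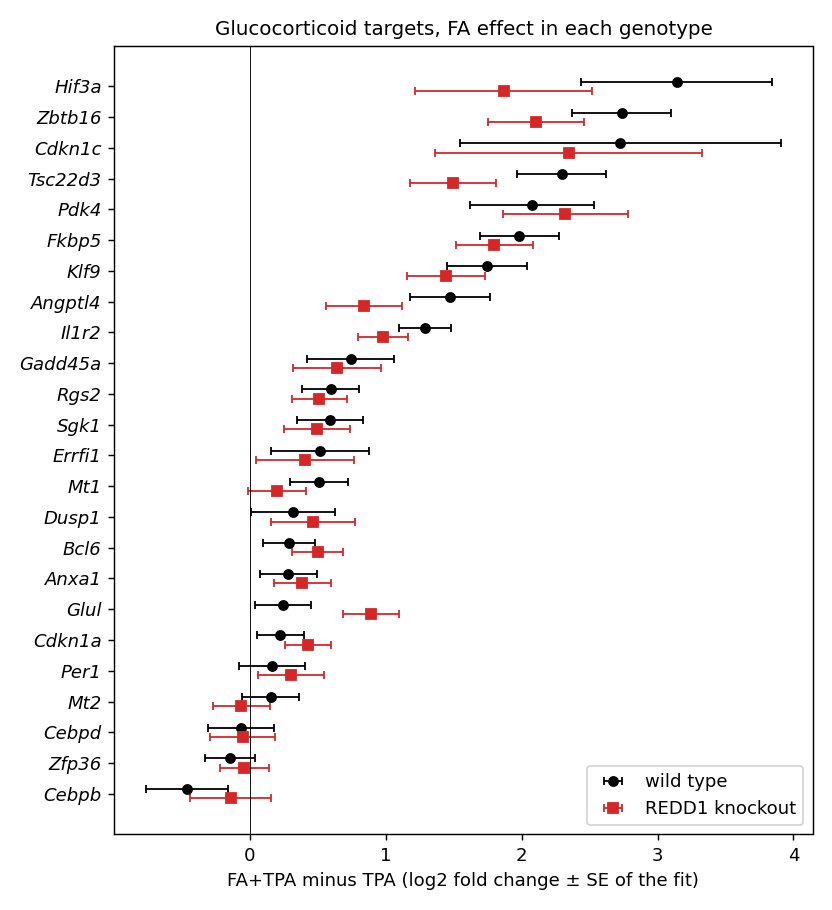
FA effect (x axis, log2 fold change from TPA to FA+TPA, ± SE of the fit) on each of 24 glucocorticoid targets (y axis), in wild type (circles) and knockout (squares), with 1 library per treated group. The 8 genes that FA raised in wild type have effects of 1.29 to 3.14 there, and Glul is the target with the higher value in the knockout and error bars that do not overlap.

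The receptor's palindrome was searched in RefSeq promoters (from 250 bases before to 50 after each start, GRCm38.p6) to show where a target carries it. The strict form, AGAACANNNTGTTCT on either strand, was in 3 of 32851 promoters (0.00913%). Counted by gene, over any promoter of the gene, it was in 1 of the 20 targets found, Sgk1, a kinase of salt transport and cell survival. A looser form, GNACANNNTGTNC, which contains the strict one, was in 0.475% of promoters, in those of Sgk1 and Mt1 among the targets and in that of Txnip. Windows of Sgk1 (chr10:21993661-21993755, plus strand, match beginning 189 bases before the start) and Txnip (chr3:96557745-96557837, plus strand, 172 bases before) are given 5′ to 3′ with the match in capitals. A match is a description of the letters and not evidence of binding.
Sgk1: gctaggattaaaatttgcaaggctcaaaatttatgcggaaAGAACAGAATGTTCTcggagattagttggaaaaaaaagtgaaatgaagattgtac
Txnip: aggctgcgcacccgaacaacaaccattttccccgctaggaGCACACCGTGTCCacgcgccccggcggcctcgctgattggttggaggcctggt

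Sgk1 read 103 and 154 CPM in wild type and 100 and 141 CPM in the knockout for TPA and FA+TPA. Its FA effects of 0.59 and 0.49 were close and passed the test only over both genotypes (adjusted p = 0.0493, edgeR). Txnip, an inhibitor of thioredoxin and of glucose uptake, read 54.8 and 286 CPM in wild type and 75.3 and 299 CPM in the knockout. It rose in wild type by 2.38 (adjusted p = 0.0367), and its knockout effect was 1.99 (adjusted p = 0.0749), with a difference of −0.39 ± 0.70.

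Genes of REDD1's own pathway showed no difference that passed the test. Of the 23 members of the list of REDD1 and mTORC1 regulators, FA raised 1 in wild type, Txnip, and 0 in the knockout, and 0 had an unadjusted p under 0.05 for the difference. The median difference was 0.12, and −0.08 with library size alone. Sesn1, a sestrin that restrains mTORC1, read 22.2 and 37.3 CPM in wild type and 23.6 and 37.4 CPM in the knockout, a difference of −0.09 ± 0.32. The differences were −0.01 ± 0.24 for Tsc2 and 0.13 ± 0.25 for Tsc1, subunits of the complex through which REDD1 acts, and 0.01 ± 0.23 for Mtor. Castor1, an arginine sensor, had the smallest p of the list (0.68 ± 0.41, unadjusted p = 0.130). Ddit4l, the REDD1 paralogue, stayed at or below 0.762 CPM in the treated libraries. Intervals of the best measured members, such as −0.51 to 0.53 for Mtor, leave room for differences of up to that size. The 13 tested genes of glucocorticoid receptor machinery, with the receptor, its chaperones and the cortisone-activating enzyme Hsd11b1, had a median difference of −0.03 and 0 unadjusted p-values under 0.05. The FoxO and muscle atrophy genes, a classical glucocorticoid programme, had a median difference of 0.20 over 15 members, and −0.001 with library size alone.

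The 10 largest FA rises over both genotypes were large in each genotype, which choosing them by that rise favours. Fmo2, a flavin monooxygenase, went from 6.587 to 140 CPM in wild type and from 1.569 to 74.96 CPM in the knockout. It rose by 4.41 in wild type and by 5.57 in the knockout (adjusted p = 3.82e-05 and 2.32e-05, edgeR), a difference of 1.16 ± 0.39 (unadjusted p = 0.0141). The knockout library was the lower at both treatments. Il22ra2, a soluble binding protein of interleukin-22, rose by 4.41 and 4.15, and Galnt15, a glycosyltransferase, by 4.08 and 4.05. Mt4, the metallothionein of stratified epithelia, went from 1.29 to 15.3 CPM in wild type and from 0.897 to 25.5 CPM in the knockout, a difference of 1.26 ± 0.48. Spock2, Krtap3-2 and Mrgprb11-ps differed by −0.25, 0.15 and −0.13. Slurp2 and Upk3b, at or below 11.6 and 2.35 CPM in the treated libraries, differed by 1.96 ± 0.91 and −3.04 ± 1.16.

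Among the 10 largest FA falls, 7 had an unadjusted p under 0.05 for the difference, 6 of them above 0. Of all genes tested, 1.62% were higher and 1.56% lower at that p. The 10 were picked by their falls in the same treated libraries, so a very low FA+TPA value favours both the choice and the difference. Their count is therefore no independent support for a weaker fall in the knockout. Mmp13, a collagenase, read 28.7 CPM in wild-type TPA and 0.254 in wild-type FA+TPA, and 29.5 and 1.45 CPM in the knockout. The TPA levels were close, and the difference of 2.44 ± 0.73 lay in the FA+TPA libraries. Ddah1, which degrades asymmetric dimethylarginine, showed the same order, from 23.3 to 0.254 CPM in wild type and from 17.2 to 1.51 CPM in the knockout (2.98 ± 0.81). For Mmp13 and Ddah1, the wild-type FA+TPA level was near that library's 3-count limit of 0.191 CPM. The size of these wild-type falls therefore rests on few reads in 1 library. Uox, urate oxidase, read 30.04 and 0.191 CPM in wild type, the latter 3 counts, and 11.9 and 0.784 CPM in the knockout. Mmp3, stromelysin, was the exception among those 7 in direction, from 49.3 to 2.92 CPM in wild type and from 127 to 4.10 CPM in the knockout (−0.87 ± 0.37). Jakmip2 fell by 4.67 and 4.66, and Rgs4 by 4.14 and 4.29, with no difference beyond the error. Alox8, an epidermal lipoxygenase, fell in wild type, and its difference of 2.35 ± 1.72 came with knockout vehicle levels of 1.87 and 16.2 CPM.

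Stress keratins and small proline-rich genes, the keratins and cornified envelope proteins of wounded and inflamed epidermis, had a wider median difference between genotypes than most lists. FA lowered 12 of the 21 tested members in wild type and 6 in the knockout, against 1.46% and 1.24% of all genes tested. The median FA effect was −1.72 in wild type and −0.61 in the knockout. The difference was above 0 in 20 of the 21, against 49.3% of all genes tested, with a median of 1.03 (0.83 with library size alone). At an unadjusted p under 0.05, 13 of the 21 were higher, against 1.62% of all genes tested. After adjustment over all genes 0 passed. These genes sit in a few clusters, share libraries and move together, so their number is not a number of replicates. On the vehicle libraries the same arithmetic gave the list a median of 0.495, at levels far below those of treated skin.

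The difference in this list lay mainly between the TPA libraries. Under TPA alone 19 of the 21 were lower in the knockout, with a median of −0.96 on the log2 scale. Under FA+TPA 5 were lower and 16 higher, with a median of 0.28. Over all genes the 2 medians were 0.00479 and −0.00409. The summed level was 17330 CPM in wild-type TPA and 13840 in knockout TPA, and 4483 and 4733 CPM with FA. The 4 vehicle libraries had between 588.5 and 794.1 CPM.

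Lce3b, a late cornified envelope gene at chr3:92932979-92934097 (GRCm38), had the second smallest p of all genes for the difference. It read 18.28 CPM in wild-type TPA, 1.016 in wild-type FA+TPA, 4.124 in knockout TPA and 3.86 in knockout FA+TPA. Of the 4 vehicle libraries 3 had no count. It fell in wild type by 4.16 (adjusted p = 0.00254, edgeR), and its knockout effect was −0.10 ± 0.42. The difference was 4.06 ± 0.64 (interval 2.62 to 5.51, unadjusted p = 0.000123, adjusted p = 0.656). Lce3a (3.35 ± 0.75), Lce3e (2.01 ± 0.51) and Lce3d (1.26 ± 0.36) lay on the same side.

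The keratins gave smaller differences. Krt6b, a keratin of wounded and hyperproliferative epidermis, went from 3608 to 532.5 CPM in wild type and from 2455 to 645.8 CPM in the knockout, a difference of 0.83 ± 0.38. Krt17 went from 5570 to 1024 CPM and from 5092 to 1367 CPM, a difference of 0.55 ± 0.34. Krt6a and Krt16 each differed by 0.35, with SEs of 0.42 and 0.37. All 4 fell in both genotypes.

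Among the small proline-rich genes, crosslinked precursors of the cornified envelope, Sprr2f fell from 43.1 to 1.46 CPM in wild type and from 22.6 to 3.44 CPM in the knockout, a difference of 2.16 ± 0.56. Sprr2e read 28.8 and 4.13 CPM in wild type and 12.7 and 8.32 CPM in the knockout (2.19 ± 0.60). Sprr2a3 fell from 121 to 4.70 CPM and from 46.5 to 4.40 CPM (1.29 ± 0.38). Sprr1b differed by 0.22 ± 0.29, and Sprr1a, at −0.31 ± 0.37, was the member below 0. The Sprr2 and Lce3 genes are near-identical copies, and how reads shared between copies were counted is not given in the sources used here.

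The AP-1 site TGANTCA, on either strand, was in 7.81% of all promoters. Counted by gene, over any promoter of the gene, it was in 9 of the 16 genes of this list that were found, all of them Sprr genes. It was in 0 of the 10 found for the antimicrobial genes below. Sprr2 promoters are similar in sequence, so these matches are not independent, and a match says nothing of AP-1 binding here. Windows of Sprr2e (chr3:92351910-92351996, plus strand, match beginning 193 bases before the start) and Sprr2f (chr3:92364950-92365036, plus strand, 197 bases before) show the shared site in capitals, 5′ to 3′, RefSeq GRCm38.p6.
Sprr2e: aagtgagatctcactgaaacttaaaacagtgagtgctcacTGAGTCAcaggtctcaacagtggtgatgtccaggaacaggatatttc
Sprr2f: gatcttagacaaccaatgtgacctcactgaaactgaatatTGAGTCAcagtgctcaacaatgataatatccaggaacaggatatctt

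Antimicrobial and alarmin genes also lay mostly above 0, but the genotypes were apart at both treatments. Their median of knockout minus wild type was −0.74 under TPA alone and 0.65 under FA+TPA, on the log2 scale. FA lowered 4 of the 13 tested in wild type (S100a8, S100a9, Defb3 and Pglyrp1) and 0 in the knockout. Over all genes tested, it lowered 1.46% in wild type and 1.24% in the knockout. The median difference was 0.74 (0.54 with library size alone), and the same arithmetic on the vehicle libraries gave 0.64. Of the 13, 12 were above 0. At an unadjusted p under 0.05, 4 were higher (S100a8, S100a9, Defb3 and Pglyrp1), against 1.62% of all genes tested. S100a8, a subunit of the alarmin calprotectin, read 366.4 CPM in wild-type TPA, 26.94 in wild-type FA+TPA, 133.8 in knockout TPA and 59.52 in knockout FA+TPA. The knockout lay between the wild-type libraries at both treatments, and the vehicle libraries were at or below 3.90 CPM. The FA effect was −3.77 ± 0.39 in wild type (adjusted p = 0.000863, edgeR) and −1.17 ± 0.36 in the knockout (adjusted p = 0.141), a difference of 2.597 ± 0.51 (interval 1.47 to 3.73, unadjusted p = 0.000438). Its partner S100a9 gave 516, 65.9, 190 and 120 CPM in the same order (2.301 ± 0.55). Pglyrp1, a peptidoglycan recognition protein, gave 18.6, 1.52, 1.52 and 1.27 CPM (3.34 ± 0.71), so that only wild-type TPA stood out. Defb3, a beta-defensin, gave 9.05, 0.318, 3.90 and 1.45 CPM (3.38 ± 0.87).

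Neutrophils also carry S100a8, S100a9 and Pglyrp1. Of 11 neutrophil markers 6 were tested, and their sum, mostly S100a8, was 414.4, 43.58, 210 and 79.91 CPM in the same order. Their median difference was −0.13, with 3 above 0 and 3 below, and at an unadjusted p under 0.05 were 1 higher, S100a8, and 2 lower, the growth factor receptor Csf3r (−1.33 ± 0.45) and Mmp8, neutrophil collagenase (−4.16 ± 0.92, at or below 3.72 CPM in every library). Elane had no count in any library, and Ly6g had at most 1. The part of neutrophils in the alarmin values was not tested.

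**Figure D4:**
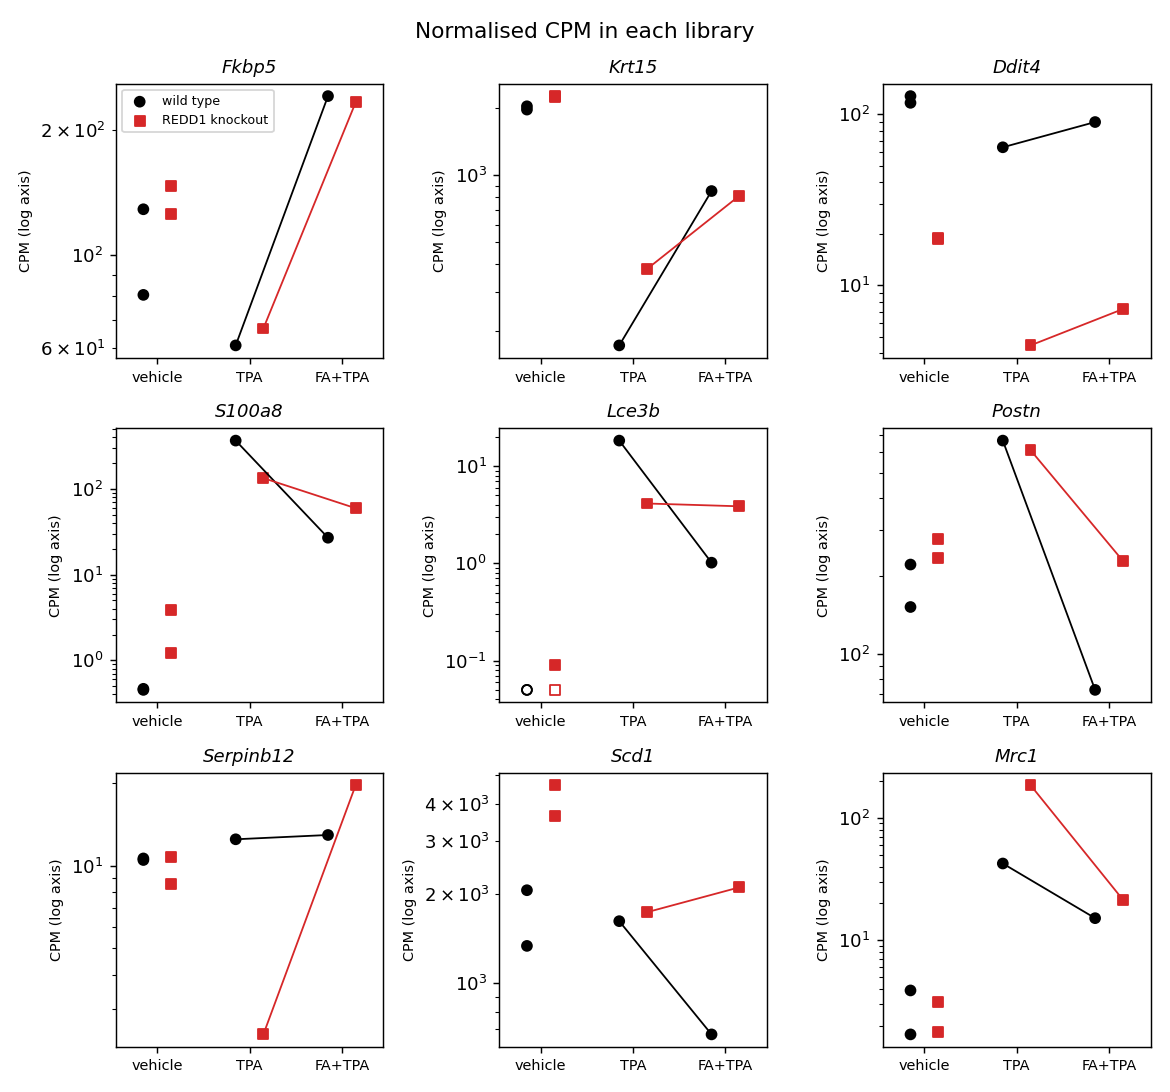
Normalised CPM (y axis, log axis) of 9 genes in all 8 libraries by treatment (x axis), with wild type as circles and knockout as squares, and lines joining TPA to FA+TPA within a genotype. Open symbols in Lce3b mark libraries with no count, drawn at 0.05. Fkbp5 rises in both genotypes, the wild-type line is the steeper in S100a8, Lce3b and Postn, and knockout TPA stands apart in Serpinb12 and Mrc1.

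Of the 25 cytokines and chemokines tested, FA lowered 13 and raised 1 over both genotypes, against 4.31% and 5.71% of all genes tested. By genotype it lowered 3 and raised 1 in wild type, against 1.46% and 1.63% of all genes tested. In the knockout it lowered 6 and raised 0, against 1.24% and 1.5%. The median FA effect was −1.31 in wild type and −1.20 in the knockout. The median difference was 0.21, and 0.05 with 4 genes that had no count in a treated library (Il24, Ccl2, Ccl4 and Osm) set to the 3-count floor. Il1b, the central inflammasome cytokine, read 7.26 and 2.92 CPM in wild type and 11.3 and 4.10 CPM in the knockout, a difference of −0.15 ± 0.48. Tslp, an epithelial inducer of type 2 immunity, differed by 0.07 ± 0.54. Il33, a nuclear alarmin of keratinocytes, had the smallest p of the list. It went from 87.8 to 30.2 CPM in wild type and from 47.0 to 35.5 CPM in the knockout, a difference of 1.13 ± 0.32 (unadjusted p = 0.00551). The 18 NF-kB feedback genes and 14 AP-1 genes had median differences of 0.23 and 0.26, or 0.03 and 0.06 with library size alone, with 0 unadjusted p-values under 0.05.

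Among epidermal differentiation genes, FA raised 13 of the 41 tested in wild type and lowered 2, and raised 16 and lowered 0 in the knockout. Over all genes tested, 1.63% rose and 1.46% fell in wild type, and 1.5% rose and 1.24% fell in the knockout. The medians of the FA effect were 0.70 and 0.72. The median difference was 0.08, and −0.12 with library size alone. Krt10, the keratin of suprabasal cells, went from 3183 to 9682 CPM in wild type and from 1900 to 8669 CPM in the knockout, rising by 1.605 ± 0.23 and 2.19 ± 0.24, a difference of 0.58 ± 0.32. Lor, loricrin, the main cornified envelope protein, rose by 1.32 and 1.69 (0.37 ± 0.32). The 2 genes that fell in wild type were Tgm3, a transglutaminase (97.2 to 36.3 CPM, and 42.1 to 36.4 CPM in the knockout, 1.21 ± 0.42), and Rptn, repetin (594 to 130 CPM, and 237 to 172 CPM, 1.73 ± 0.65). Both had the higher level in wild-type TPA, as in the stress list.

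Krt15, a keratin of resting basal and follicle cells, was the 1 gene that DESeq2 called lower for the difference (−1.19, DESeq2 adjusted p = 0.0151). It read between 1974 and 2270 CPM in vehicle skin, 172.1 in wild-type TPA, 849.9 in wild-type FA+TPA, 379.1 in knockout TPA and 808.8 in knockout FA+TPA. The FA+TPA libraries were close, and wild-type TPA was the lowest. It rose by 2.304 ± 0.20 in wild type and by 1.09 ± 0.19 in the knockout, a difference of −1.21 ± 0.27 in edgeR (adjusted p = 0.943). The other 13 basal and hemidesmosome genes had 0 unadjusted p-values under 0.05.

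Postn, encoding the matrix protein periostin, was called higher by DESeq2 (adjusted p = 0.00535). It read 663.7 CPM in wild-type TPA, 72.87 in wild-type FA+TPA, 610.2 in knockout TPA and 228.9 in knockout FA+TPA, and 152 to 277 CPM in vehicle skin. The TPA libraries were close and the FA+TPA libraries apart. It fell by 3.19 in wild type and 1.42 in the knockout, a difference of 1.77 ± 0.36 (unadjusted p = 0.000588). Has3, a hyaluronan synthase, fell from 158 to 22.6 CPM and from 114 to 42.3 CPM (1.38 ± 0.27), and Gjb2, connexin 26, from 419 to 47.9 CPM and from 278 to 80.0 CPM (1.33 ± 0.31). These 2 were chosen after their values were seen.

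Serpinb12, an intracellular serine protease inhibitor at chr1:106934449-106957080, had the smallest p of all genes. It read 12.5 CPM in wild-type TPA, 12.96 in wild-type FA+TPA, 2.421 in knockout TPA and 19.72 in knockout FA+TPA, and 8.57 to 10.8 CPM in vehicle skin. Knockout TPA alone was low. The difference was 2.97 ± 0.38 (interval 2.12 to 3.82, unadjusted p = 1.32e-05, adjusted p = 0.253, edgeR), and DESeq2 called it (adjusted p = 0.00535). Ano7, a membrane protein of the anoctamin family, also had knockout TPA as the lowest library, at 21.4, 18.9, 5.60 and 19.7 CPM (1.99 ± 0.33). Its vehicle levels were higher than all of these, at 31.3 to 54.5 CPM. Knockout TPA was also lowest for Serpina3j, a member of a serpin cluster of near-identical copies, at 36.3, 51.5, 3.14 and 25.3 CPM (2.51 ± 0.50). Its knockout FA+TPA level lay below both wild-type treated libraries and below vehicle skin, at 49.6 to 88.1 CPM.

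Sebaceous gland markers formed the second group with a median difference of 1.03. All 11 were above 0, against 49.3% of all genes tested. At an unadjusted p under 0.05, 6 were higher, against 1.62% of all genes tested. The FA effect had a median of −0.86 in wild type and 0.46 in the knockout, and 0 members passed the test in either. Scd1, a stearoyl-CoA desaturase, read 1618 and 673.4 CPM in wild type and 1734 and 2102 CPM in the knockout, a difference of 1.54 ± 0.42. Scd3, a paralogue found in sebocytes, read 49.1, 18.6, 54.0 and 76.3 CPM (1.90 ± 0.48). Mgst1, a microsomal glutathione transferase, read 44.2, 16.7, 59.3 and 60.2 CPM (1.43 ± 0.47). Wild-type FA+TPA was the low library in each.

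The summed sebaceous level was 2869 CPM in wild-type TPA, 1651 in wild-type FA+TPA, 3070 in knockout TPA and 3681 in knockout FA+TPA. It already differed in vehicle skin, at 2140 and 3137 CPM in wild type and 5349 and 6730 CPM in the knockout. In scraped epidermis fewer cells of a type and less RNA per cell cannot be told apart. Of the 24 genes of sterol synthesis 22 were above 0, with a median of 0.27 (0.07 with library size alone). The part of sebaceous cells in the sterol values was not tested.

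Macrophage markers went the other way. Of the 11 tested 10 were below 0, with a median of −0.79. The same arithmetic on the vehicle libraries gave these genes a median of −0.367. At an unadjusted p under 0.05, 2 of the 11 were lower, against 1.56% of all genes tested. FA raised 1 and lowered 0 in wild type, against 1.63% and 1.46% of all genes tested. In the knockout it raised 0 and lowered 3, against 1.5% and 1.24%. All 11 were higher in knockout TPA than in wild-type TPA, and 7 were in FA+TPA. Their sum was 138.6 CPM in wild-type TPA, 150.8 in wild-type FA+TPA, 340.4 in knockout TPA and 179.1 in knockout FA+TPA, and 113.9 to 133.4 CPM in vehicle skin. Mrc1, the mannose receptor, made up most of the excess. It read 42.35, 15.12, 185.5 and 21.47 CPM in that order, fell in the knockout by 3.11 (adjusted p = 0.00215, edgeR), and differed by −1.62 ± 0.49. Ccr2, the chemokine receptor of monocytes, read 2.71, 1.27, 11.3 and 1.27 CPM (−2.06 ± 0.72). C1qa, C1qb and C1qc, complement subunits made by resident macrophages, differed by −0.24, −0.05 and 0.05, so the list did not move as 1.

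Knockout TPA was also the high library for other genes of that kind, chosen after their values were seen. Spp1, osteopontin, read 3.078, 1.588, 31.25 and 1.87 CPM (−3.11 ± 0.67), and Mmp12, macrophage elastase, 2.955, 1.016, 19.28 and 1.146 CPM (−2.53 ± 0.61). Dab2, an endocytic adaptor, read 13.3, 5.34, 55.6 and 5.43 CPM (−2.04 ± 0.55). In all 3 the FA+TPA libraries were close between genotypes. Cd84, a leukocyte adhesion receptor, differed in another way, with wild-type TPA the low library at 2.40 CPM and the other treated libraries at 6.09 to 10.4 CPM (−2.38 ± 0.41).

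Skeletal muscle transcripts, a sign of tissue below the epidermis in a scrape, varied across the libraries. All 10 tested were below 0, with a median of −1.01 and 0 unadjusted p-values under 0.05. The sum was 125.1, 611.6, 180.1 and 448.6 CPM in the same order, and 83.94 and 38.49 CPM in wild-type vehicle against 698.6 and 359.7 CPM in knockout vehicle. The summed level of the 11 fibroblast markers ranged from 386.7 to 683.1 CPM in the treated libraries, and their median difference was −0.09. Of these, 1 was higher at an unadjusted p under 0.05, Col1a1 (1.39), against 1.62% of all genes tested. The part of muscle or dermis in other differences was not tested.

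**Figure D5:**
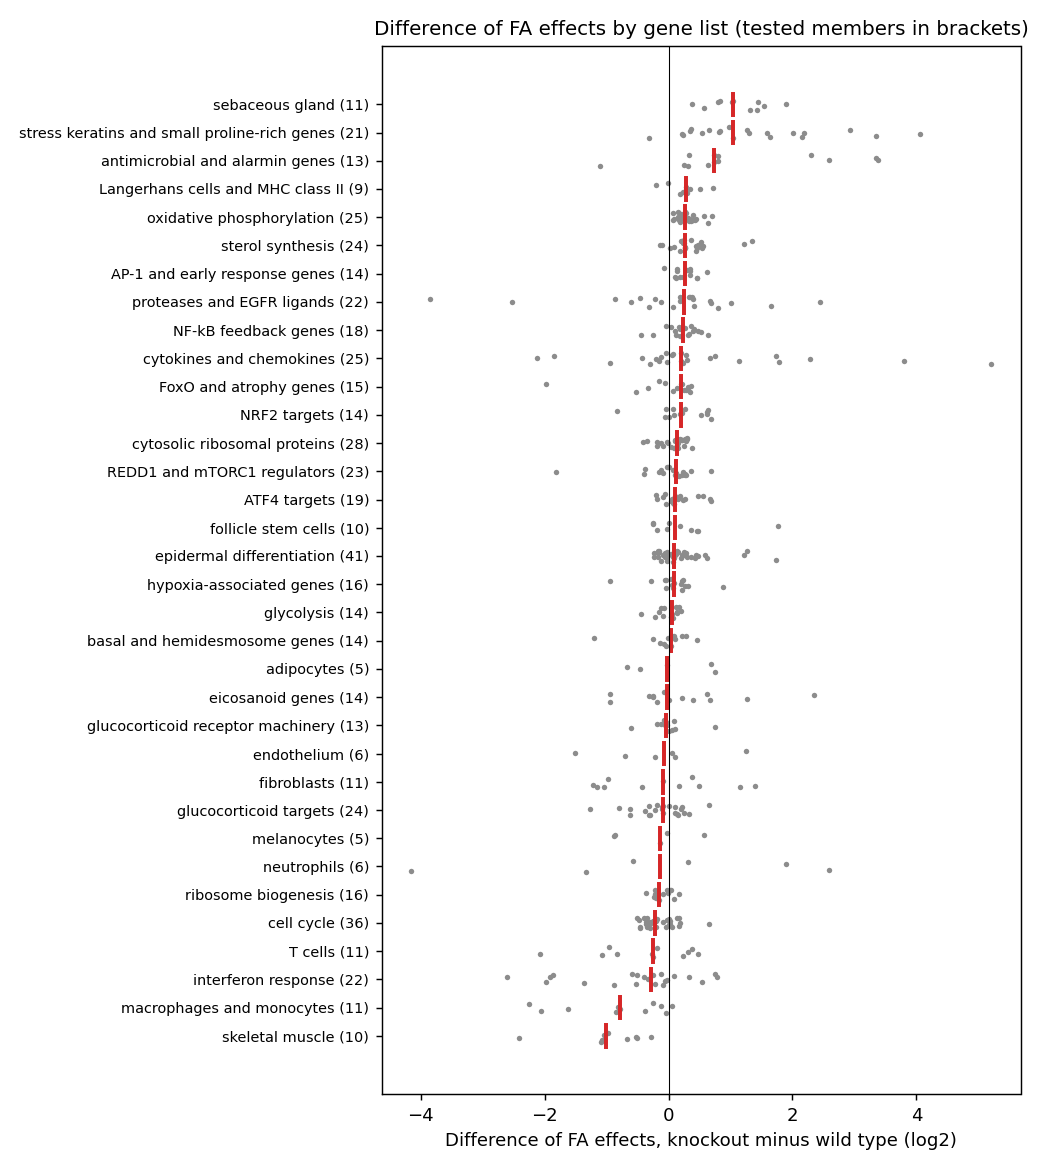
Difference of FA effects, knockout minus wild type (x axis, log2), for the tested members (points) and the median (bar) of the 34 gene lists with at least 5 tested members (y axis, number of members in brackets). Sebaceous, stress keratin and antimicrobial lists have medians of 1.03, 1.03 and 0.74, glucocorticoid targets −0.10, macrophage markers −0.79 and skeletal muscle −1.01.

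All 25 tested genes of oxidative phosphorylation were above 0, with a median difference of 0.27, and 0.07 with library size alone. At an unadjusted p under 0.05, 2 were higher, against 1.62% of all genes tested. Ndufa2, a subunit of respiratory complex I, read 25.4 CPM in wild-type TPA and 15.2, 17.6 and 17.1 CPM in wild-type FA+TPA, knockout TPA and knockout FA+TPA (0.70 ± 0.29). The 36 cell cycle genes had a median of −0.21 (−0.41 with library size alone), with 25 below 0, and the 22 interferon response genes one of −0.29 (−0.49), with 17 below 0, both with 0 unadjusted p-values under 0.05. For the interferon list the same arithmetic on vehicle libraries gave −0.75. FA lowered 0 of these 22 in wild type and 5 in the knockout, against 1.46% and 1.24% of all genes tested. Glycolysis genes had a median of 0.05, or −0.15 with library size alone. The 14 NRF2 targets tested had a median of 0.20 (−0.002 with library size alone), with 11 above 0 and 3 below. Of these, 1 was higher and 1 lower at an unadjusted p under 0.05, against 1.62% and 1.56% of all genes tested. The lower one, Hmox1, heme oxygenase, went from 83.9 to 217 CPM in wild type and from 99.5 to 144 CPM in the knockout. Its difference was −0.84 ± 0.27 (unadjusted p = 0.0104, edgeR).

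The 48 genes called in all 4 fits that left out a vehicle library held members of the lists above. Over the 18790 genes tested in all 4, the calls were 0.208% higher and 0.0479% lower. From the 21 stress keratin and small proline-rich genes tested above came 6 (Lce3a, Lce3b, Lce3e, Sprr2d, Sprr2e and Sprr2f). From the 13 antimicrobial genes tested above came 4 (S100a8, S100a9, Defb3 and Pglyrp1). The lists were chosen with earlier results of these data known, so these counts are no independent support for them. Scd3, Postn, Rptn, Mrc1 and Mmp8 were 1 each from other lists, and 33 were in no list. Those 33 include Serpinb12, Ano7 and Serpina3j, and also Akr1c18, a steroid-inactivating dehydrogenase, at 24.1, 1.78, 13.8 and 15.02 CPM (3.88 ± 0.73). These fits rest on 1 residual degree of freedom and share all 4 treated libraries, so they are not separate tests of the treated libraries.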

How the data were processed

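RNA sequencing libraries of mouse epidermis were analysed from the authors' deposited read counts per Ensembl gene, 1 file per library. The tools named in the submitters' processing notes are Trim Galore, STAR and HTSeq, with the build mm10. Their versions, the annotation, strandedness and any filters were not given in the sources used here. Reads of overlapping or antisense genes can therefore not be told apart. Symbols and coordinates came from GENCODE M21, which matched 54165 of 54232 identifiers.

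Counts were tested in edgeR 4.0.16 (R 4.3.3) by quasi-likelihood F tests with TMM factors (0.8596 to 1.102), filterByExpr by treatment (minimum count 10, 19251 genes) and Benjamini-Hochberg adjustment at 0.05. The difference of FA effects was a contrast of 6 group means with 2 residual degrees of freedom, all from the vehicle pairs, so single treated libraries were assumed to vary like them. SE was the log2 change over the root of F, and intervals are 95%. Genes responding over both genotypes came from an additive fit with 4 residual degrees of freedom. The difference of differences by library used log2 CPM with a prior count of 2. The scripts were tested on simulated counts. The vehicle pairs differed beyond counting noise (chi-square per degree of freedom 27.6 in wild type and 12.4 in the knockout), so each was kept as 2 libraries.

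Members and the 38 gene lists were chosen with earlier results of these data known. Named by rule were Ddit4, the list member with the smallest p where none passed, the 10 largest FA rises and falls over both genotypes, and all glucocorticoid targets and REDD1 or mTORC1 regulators. Some genes that the rule takes are left out and not reported here. Other genes, including further list members and genes with the smallest p, were chosen after their values were seen. Alternatives were RLE and library-size scaling, other count filters, DESeq2 1.42.0, limma-voom (limma 3.58.1), a single genotype-by-FA term, omission of Gm26917, of genes within 10 Mb of Ddit4 or of each vehicle library, and a replicate block.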

Additional observations from a re-analysis of the deposited data

How the results depend on the processing

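The difference of FA effects had 0 calls in edgeR with RLE or library-size scaling, no filter, a minimum count of 50, a single genotype-by-FA term, or without Gm26917 or genes near Ddit4, and in limma-voom. A fit with bias-adjusted deviances, chosen after seeing the data, also gave 0. DESeq2 called 6 higher and 1 lower, and 146 knockout falls. Without 1 vehicle library, calls for the difference ranged from 42 to 138 higher and 9 to 45 lower, wild-type FA calls from 545 to 1231 higher and 495 to 1124 lower, and knockout FA calls from 483 to 1309 higher and 424 to 896 lower. Leaving out a treated library leaves no difference to fit.

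Vehicle replicate numbers pair nothing the labels name, and pair differences correlated at −0.119 across genes between genotypes. With the replicate block, 53 genes were called higher and 10 lower for the difference, 593 and 523 for FA in wild type, and 552 and 442 in the knockout, on 1 residual degree of freedom. With crossed numbers, added after seeing the data, these counts were 21 and 2, 708 and 587, and 643 and 458.

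Falls over both genotypes numbered 1289 with no filter, knockout falls 148 with a minimum count of 50, and wild-type rises 509 with library size alone and 517 with the single term. The share of FA-responsive genes with the smaller change in the knockout was 55.6% with no filter, 63.8% with library size alone and 64.5% among genes changed over 2-fold. Of 2683 values of 169 named genes under alternatives, 2434 were counted as unchanged, 230 newly passed the threshold, and 19 were counted as sign changes. A sign change smaller than the SE in a gene without a call was counted as unchanged. For example, Mtor went from 0.00758 to −0.191 with library size alone. All 19 counted sign changes came with the single term, which by construction sets FA+TPA against vehicle and TPA together: Ddit4 −0.612, Hsd11b1 0.157, Psph −0.0374, Rpl3 0.0184, Cpa3 0.707, Fmo2 −0.0553, Galnt15 0.626, Krtap3-2 −0.465, Dusp1 −0.644, Pdk4 −0.572, Hif3a 0.288, Krt6a −0.152, Krt16 −0.383, Sprr1b −0.309, Defb14 −0.175, Fasn −0.096, Csf1r 0.101, Flg −0.696 and Rptn −0.297. The cause of the other shifts was not tested. Depth limited genes near the 3-count floor, such as Cdkn1c, Uox, Mmp13 and Ddah1.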
